A study of Mus musculus with 15 samples.

Results

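The genes described here drive or restrain the G1 phase of the cell cycle and its passage into S phase: the D cyclins *Ccnd1*, *Ccnd2*, and *Ccnd3*, the E cyclins *Ccne1* and *Ccne2*, the kinases *Cdk4* and *Cdk2*, the kinase inhibitors *Cdkn1b* and *Cdkn1c*, and the transcription factor *E2f1*. Members were the noncontrol probes whose gene name equals one of these symbols, which gave 10 of the 27962 gene names on the array, on 18 of its 41174 probes. Each gene was represented by its brightest probe, and these 10 probes were well above background on all 15 arrays and saturated on none. The uterine RNA came from ovariectomized adult mice (10 or more weeks old) that received, after a rest of 10 to 14 days, an intraperitoneal injection of saline (100 μL) or of 250 ng estradiol (E2) or estriol (E3). Estriol differs from estradiol by an additional hydroxyl group. There were 3 arrays for each of 5 groups: saline at 24 hr, E2 at 2 hr, E3 at 2 hr, E2 at 24 hr, and E3 at 24 hr. The saline arrays at 24 hr served as the control for both times. The 3 E2 arrays at 2 hr came from C57bl6/Jx129 mice labeled as wild type for Esr1, and the other 12 from C57bl6/J mice. The labels describe single uteri and the methods of the study describe pooled uteri, so p-values measure the spread between these samples only.

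In a resting cell the D cyclins, made in response to growth signals, bind Cdk4 or Cdk6 and start to phosphorylate the retinoblastoma protein, which releases E2F factors. E2F then drives *Ccne1*, *Ccne2*, *E2f1* itself, and the genes of DNA replication, and cyclin E with Cdk2 completes the passage into S phase. The inhibitors p27 (*Cdkn1b*) and p57 (*Cdkn1c*) bind cyclin and kinase complexes and hold the cell in G1. In the uterus of an ovariectomized mouse, estrogen is known to bring the resting epithelial cells into S phase within a day of injection.

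The sequences shown here are the brightest probes of *Ccne2*, *Cdk4*, and *Cdk2*, from which their levels were read, and the second *Cdkn1b* probe, which is described beside the brightest one further on and is not the source of the main *Cdkn1b* values. Each is a 60-base probe with at least 1 reading frame without a stop codon, printed in lower case with no base singled out. Their positions are those of the array annotation (build mm7, NCBI35): the *Ccne2* probe lies at chr4:11130171-11130230, the *Cdk4* probe at chr10:126562389-126562448, the brightest *Cdk2* probe at chr10:128205529-128205588 and the second *Cdkn1b* probe at chr6:134935407-134935465.
Ccne2: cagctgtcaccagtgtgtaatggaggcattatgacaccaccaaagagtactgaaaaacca
Cdk4: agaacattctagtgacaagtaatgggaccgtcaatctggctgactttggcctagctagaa
Cdk2: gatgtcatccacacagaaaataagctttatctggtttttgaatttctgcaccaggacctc
Cdkn1b: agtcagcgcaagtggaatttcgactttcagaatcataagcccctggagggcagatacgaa

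The level of a gene is given as log2 of its processed signal over the 75th percentile of the array, so a value of 0 is the signal that 75% of spots do not exceed, and levels of different probes are not compared with each other. Differences are log2 differences between group means from limma, with standard errors and with p-values adjusted by the Benjamini-Hochberg method over all 34765 probes tested (34756 where the E2 arrays at 2 hr enter). A probe was called at an adjusted p under 0.05. Because whole tissue was measured, fewer cells of a type and less RNA per cell cannot be told apart. The E2 arrays at 2 hr differed from all others in strain, slides, scanner, and scan day, so for each comparison that uses them these cannot be told apart from the treatment. Slide and group also coincided in the other groups, except for 1 slide that held saline replicate 3 and the 3 E3 arrays at 2 hr.

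Some arrays stood apart by markers of other tissues. The summed level of 6 leukocyte markers (linear, relative to the 75th percentile of the array, all 6 well above background on each array) was 14.5 on saline replicate 2, 24.8 on E3 2 hr replicate 3, and 35.2 on E3 24 hr replicate 3, against 3.81 to 11.4 on the other 12 arrays. The summed level of 6 exocrine pancreas markers was 362 on E3 2 hr replicate 2 and 153 on E2 24 hr replicate 2, against at most 6.49 elsewhere. The 7 liver markers measured, summed, lay at 5.25 to 19.6 on saline arrays, 1.28 to 3.28 with E3 at 2 hr, and at most 0.506 on the remaining arrays, and only 2 or 3 of them were well above background with E2 at 2 hr. All 7 were called lower than saline in each hormone group (median -7.81 with E2 and -2.00 with E3 at 2 hr, and -5.09 and -4.85 at 24 hr). Each difference from saline is thus taken against the arrays highest in liver markers. The 7 epithelial markers had a summed level of 79.2 to 108 in saline, 58.7 to 79.7 with E2 and 63.0 to 84.8 with E3 at 2 hr, and 178 to 190 with E2 and 132 to 142 with E3 at 24 hr. At 2 hr limma called 2 of the 7 higher and 4 lower than saline with E2, and 1 higher and 1 lower with E3. At 24 hr 6 were called higher and 0 lower with each compound. Lists for other cell types were summed in the same way. The 6 stroma markers summed to 200 to 246 in saline, 184 to 215 with E2 and 166 to 190 with E3 at 2 hr, and 302 to 328 with E2 and 321 to 362 with E3 at 24 hr. The 6 smooth muscle markers summed to 257 to 296 in saline, 272 to 298 at 2 hr, and 353 to 383 with E2 and 361 to 445 with E3 at 24 hr. Skeletal muscle markers (5) lay at 3.43 to 3.77 in saline, 2.25 to 2.80 with E2 and 3.70 to 4.19 with E3 at 2 hr, and at least 5.36 on each array at 24 hr. At 2 hr limma called 4 of the 5 lower than saline with E2 and 3 with E3, and 2 higher with E3 than with E2. Endothelium markers (5) lay at 7.36 to 7.60 in saline, 7.04 to 9.12 with E2 and 5.61 to 6.03 with E3 at 2 hr, and 4.38 to 5.93 at 24 hr, where each E2 array was below each E3 array. Against saline 2 of the 5 were called lower with either compound at 2 hr and 1 higher with E2, and 4 were lower with E2 and 2 with E3 at 24 hr. Fat markers (4) summed to 3.61 to 20.9 in saline, 5.12 to 11.1 with E2 and 5.51 to 18.3 with E3 at 2 hr, 2.05 to 3.46 with E2 at 24 hr, and 2.17 to 14.1 with E3 at 24 hr. In the comparison of E2 at 24 hr with saline 3 of the 4 were called lower (median -1.88), and with E3 at 24 hr limma called 0 of them (0 also at an unadjusted p under 0.05). All 6 uterine identity markers were well above background on 14 arrays and 5 of them on the other one. Their summed level was 41.4 to 46.9 in saline, 30.8 to 32.5 with E2 and 18.7 to 23.1 with E3 at 2 hr, and 28.0 to 36.9 with E2 and 35.8 to 39.5 with E3 at 24 hr. At 2 hr limma called 4 of the 6 lower than saline and 2 higher with E2 (median -1.04), and 5 lower and 1 higher with E3 (median -0.89). At 24 hr 3 were lower and 1 higher with E2 (median -0.40), and 2 were lower with E3 (median -0.22). The part of these lists in the results was not tested.

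**Figure D1:**
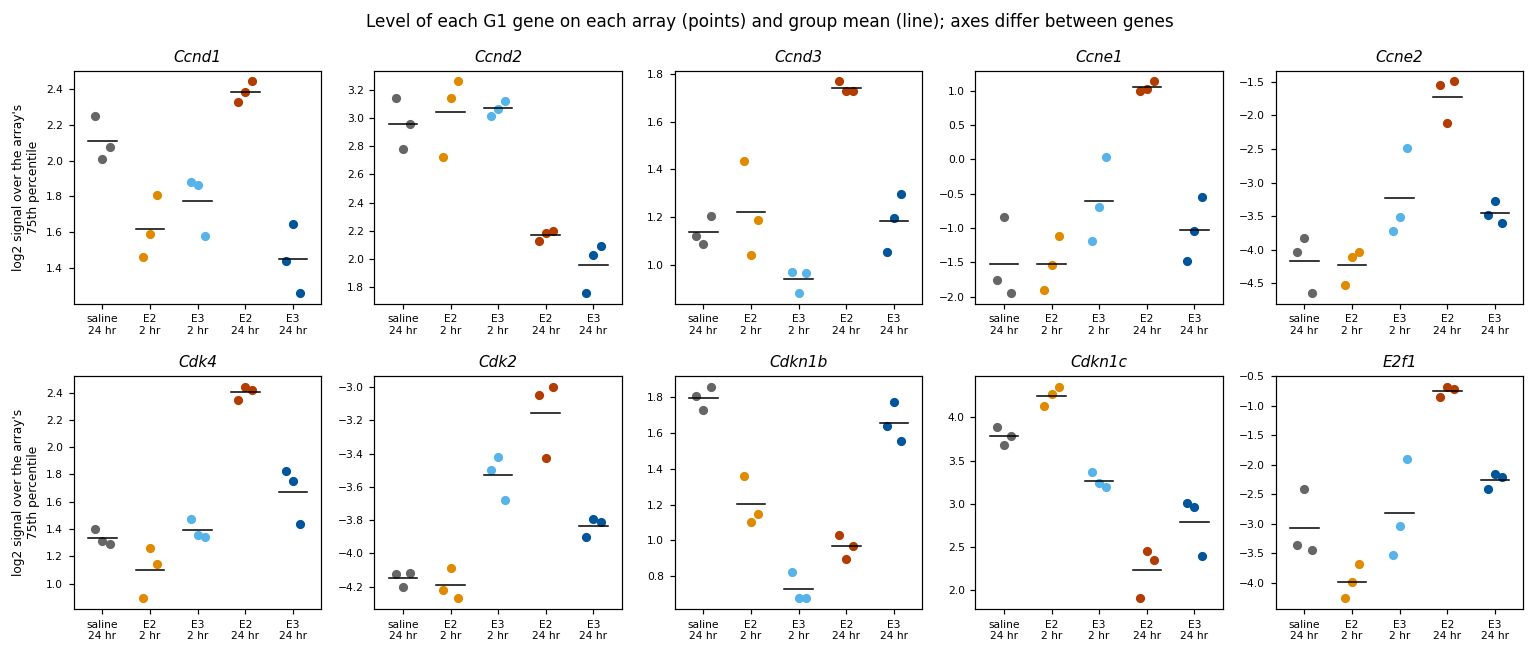
Level of each gene (y axis, log2 signal over the 75th percentile of the array, a different range for each gene) on the 3 arrays of each group (points) with the group mean (line). *Ccne1*, *Ccne2*, *Cdk4*, and *E2f1* lay above all other arrays with E2 at 24 hr, and *Cdkn1b* was lowest with E3 at 2 hr.

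Among the D cyclins, which begin the sequence, *Ccnd3* rose with E2 at 24 hr, *Ccnd2* fell with both compounds at 24 hr, and *Ccnd1* fell with both at 2 hr and with E3 at 24 hr. The *Ccnd1* levels were 2.25, 2.01, and 2.08 on the saline arrays, 1.46, 1.59, and 1.81 with E2 at 2 hr, 1.88, 1.87, and 1.58 with E3 at 2 hr, 2.33, 2.38, and 2.44 with E2 at 24 hr, and 1.44, 1.65, and 1.26 with E3 at 24 hr. No saline array overlapped with any treated group: all 9 arrays at 2 hr and with E3 at 24 hr were lower, and the E2 arrays at 24 hr were higher. At 2 hr, *Ccnd1* differed from saline by -0.49 ± 0.12 (SE, n = 3 per group, limma adjusted p = 0.0043) with E2 and by -0.34 ± 0.12 (limma adjusted p = 0.041) with E3. The E3 call at 2 hr was lost without saline replicate 1 (-0.27, limma adjusted p = 0.14), saline replicate 3 (-0.35, limma adjusted p = 0.071), or E3 replicate 3 (-0.24, limma adjusted p = 0.16), and with slide as a fixed block, where this comparison rests on saline replicate 3 alone, the difference was -0.30 (limma adjusted p = 0.24). It was also lost without the 3 arrays high in leukocyte markers (-0.29, limma adjusted p = 0.099) or the 2 high in pancreas markers (-0.38, limma adjusted p = 0.063), and with arrays left unscaled, dim probes kept, the replicate number as a block, or only the compared groups in the fit (each -0.34, limma adjusted p = 0.051 to 0.080). At 24 hr the difference from saline was 0.27 ± 0.12 with E2 (limma adjusted p = 0.077, or 0.045 with only these groups in the fit), which did not pass, and -0.66 ± 0.12 with E3 (limma adjusted p = 0.002).

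*Ccnd2*, another D cyclin that partners with Cdk4 and Cdk6, did not pass at 2 hr and fell later. Its levels were 3.14, 2.78, and 2.96 in saline, 2.72, 3.14, and 3.26 with E2 at 2 hr, 3.02, 3.06, and 3.12 with E3 at 2 hr, 2.13, 2.18, and 2.20 with E2 at 24 hr, and 1.76, 2.03, and 2.09 with E3 at 24 hr. All 6 arrays at 24 hr after a hormone lay below all 9 others. From saline, *Ccnd2* fell by 0.79 ± 0.14 with E2 (limma adjusted p = 0.00036), and with E3 it fell by 1.00 ± 0.14 (limma adjusted p = 0.00038). At 2 hr the difference was 0.08 (95% confidence interval -0.22 to 0.38) with E2 and 0.11 (-0.19 to 0.41) with E3. The other two *Ccnd2* probes also fell with each compound at 24 hr, with differences of -0.67 and -0.66 with E2 and of -0.89 on both with E3.

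*Ccnd3* gave 1.12, 1.09, and 1.21 in saline, 1.43, 1.04, and 1.19 with E2 at 2 hr, 0.97, 0.88, and 0.97 with E3 at 2 hr, 1.77, 1.73, and 1.73 with E2 at 24 hr, and 1.05, 1.20, and 1.30 with E3 at 24 hr. The 3 E2 arrays at 24 hr lay above all others, and the E3 arrays at 24 hr overlapped with saline. *Ccnd3* rose by 0.60 ± 0.10 with E2 at 24 hr (limma adjusted p = 0.0002), and its difference with E3 was 0.04 (95% confidence interval -0.17 to 0.26).

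The E cyclins, which activate Cdk2 late in G1, gave the widest differences of the 10 genes from saline with E2 at 24 hr, but did not pass with E3 at 24 hr. *Ccne1* levels were -1.76, -0.84, and -1.95 in saline, -1.90, -1.54, and -1.12 with E2 at 2 hr, -1.18, -0.69, and 0.04 with E3 at 2 hr, 1.00, 1.03, and 1.14 with E2 at 24 hr, and -1.48, -1.04, and -0.55 with E3 at 24 hr. The E2 arrays at 24 hr were close together and above all others, and every other treated group overlapped with saline. *Ccne1* rose by 2.57 ± 0.35 with E2 at 24 hr (5.95-fold, limma adjusted p = 5.5e-05), against 0.49 ± 0.35 with E3 (limma adjusted p = 0.31). At 2 hr the difference was 0.00 with E2 (95% confidence interval -0.77 to 0.77) and 0.91 ± 0.35 with E3 (limma adjusted p = 0.0499).

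*Ccne2*, the other E cyclin, followed the same pattern at 24 hr. Levels of -4.04, -3.83, and -4.65 in saline compare with -4.53, -4.12, and -4.03 with E2 and -3.72, -3.51, and -2.48 with E3 at 2 hr, and with -1.55, -2.12, and -1.49 with E2 and -3.48, -3.27, and -3.60 with E3 at 24 hr. Here the E3 arrays of each time also lay above all saline arrays. The rise with E2 at 24 hr was 2.45 ± 0.31 (5.48-fold, limma adjusted p = 2.9e-05), and the difference with E3 at 24 hr was 0.72 ± 0.31 (limma adjusted p = 0.09). With E3 at 2 hr *Ccne2* was higher by 0.94 ± 0.31 (limma adjusted p = 0.024) and with E2 the difference was -0.05 (95% confidence interval -0.73 to 0.62).

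The calls of *Ccne1* and *Ccne2* with E3 at 2 hr depended on single arrays, among them E3 2 hr replicate 3, which was high in leukocyte markers. For *Ccne1* the call was lost without E3 2 hr replicate 3 (0.58, limma adjusted p = 0.20), replicate 2 (0.94, limma adjusted p = 0.085), saline replicate 1 (0.78, limma adjusted p = 0.14), or saline replicate 3 (0.69, limma adjusted p = 0.17), and with slide as a fixed block the difference was 1.34 (limma adjusted p = 0.070). For *Ccne2* it was lost without E3 2 hr replicate 3 (0.56, limma adjusted p = 0.098) or saline replicate 3 (0.70, limma adjusted p = 0.10). Without all 3 arrays with high leukocyte markers, the E3 difference at 2 hr was 0.92 for *Ccne1* (limma adjusted p = 0.017) and 0.73 for *Ccne2* (limma adjusted p = 0.053). *Ccne2* with E3 at 24 hr was then 0.97 higher than saline (limma adjusted p = 0.029). The rises with E2 at 24 hr were then 2.91 for *Ccne1* and 2.62 for *Ccne2*. Without the 2 arrays high in pancreas markers, the *Ccne1* difference with E3 at 2 hr was 0.94 (limma adjusted p = 0.10). Its call was also lost with the percentile of detected probes (the 75th over the probes detected throughout), no scaling, or no filter on dim probes. The same held with only the compared groups in the fit or without the E2 arrays at 2 hr (0.88 to 0.91 in all of these, limma adjusted p = 0.056 to 0.12). The *Ccne2* call was lost with only the compared groups (0.94, limma adjusted p = 0.091). *Ccne2* was called with E3 at 24 hr under quantile normalization (0.83, limma adjusted p = 0.044). Of the 6 leukocyte markers, limma called 0 in each comparison with saline, and 0 had an unadjusted p under 0.05.

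The kinase *Cdk4*, the partner of the D cyclins, measured 1.40, 1.31, and 1.29 in saline, 0.89, 1.26, and 1.14 with E2 at 2 hr, 1.47, 1.36, and 1.34 with E3 at 2 hr, 2.35, 2.44, and 2.42 with E2 at 24 hr, and 1.82, 1.75, and 1.44 with E3 at 24 hr. Both hormone groups at 24 hr lay above saline, and they did not overlap with each other. *Cdk4* rose by 1.07 ± 0.11 with E2 (2.10-fold, limma adjusted p = 7.4e-06) and by 0.34 ± 0.11 with E3 (limma adjusted p = 0.037) at 24 hr. The E3 call was lost without saline replicate 1, 2, or 3 (0.37, 0.33, and 0.31, limma adjusted p = 0.053, 0.087, and 0.11) and without E3 replicate 1 or 2 (0.26 and 0.30, limma adjusted p = 0.13 and 0.11). It was also lost with normexp (a model-based background correction), quantile normalization, no scaling, or only the compared groups in the fit (0.33, 0.27, 0.27, and 0.34, limma adjusted p = 0.052, 0.066, 0.23, and 0.078). At 2 hr the differences of -0.24 with E2 (95% confidence interval -0.48 to 0.01) and 0.06 with E3 (-0.19 to 0.30) did not pass. Without E2 2 hr replicate 2 the E2 difference was called (-0.32, limma adjusted p = 0.040), as it was with quantile normalization (-0.32, limma adjusted p = 0.019) or the percentile of detected probes (-0.29, limma adjusted p = 0.029).

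*Cdk2*, the partner of cyclin E, rose on its brightest probe with E3 at 2 hr and with both compounds at 24 hr. Its brightest probe read -4.12, -4.20, and -4.12 in saline, -4.22, -4.09, and -4.27 with E2 at 2 hr, -3.50, -3.42, and -3.68 with E3 at 2 hr, -3.05, -3.43, and -3.00 with E2 at 24 hr, and -3.90, -3.79, and -3.81 with E3 at 24 hr. All arrays of the other groups exceeded saline except those of E2 at 2 hr, which overlapped with it. The rise was 0.62 ± 0.11 with E3 at 2 hr (limma adjusted p = 0.00063), 0.99 ± 0.11 with E2 at 24 hr (limma adjusted p = 1.3e-05), and 0.31 ± 0.11 with E3 at 24 hr (limma adjusted p = 0.048). With slide as a fixed block the *Cdk2* difference with E3 at 2 hr was 0.58 (limma adjusted p = 0.023). Its E3 call at 24 hr was lost when any 1 of the 6 arrays compared (saline or E3 at 24 hr, replicates 1 to 3) was left out, with differences of 0.29 to 0.35 and limma adjusted p = 0.068 to 0.12, and without the 3 arrays high in leukocyte markers (0.27, limma adjusted p = 0.19). Normexp, the percentile of detected probes, no scaling, no filter on dim probes, and the replicate block lost it too (0.23 to 0.31, limma adjusted p = 0.060 to 0.36). So did leaving the E2 arrays at 2 hr out of the fit.

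The inhibitors moved in time in different ways. *Cdkn1b* levels were 1.80, 1.73, and 1.86 in saline, 1.36, 1.10, and 1.15 with E2 at 2 hr, 0.82, 0.68, and 0.68 with E3 at 2 hr, 1.03, 0.90, and 0.97 with E2 at 24 hr, and 1.64, 1.77, and 1.56 with E3 at 24 hr. On this brightest probe all arrays with E2 at either time and with E3 at 2 hr lay below saline, and those with E3 at 24 hr overlapped with it. The other 2 *Cdkn1b* probes, annotated to another transcript, lay below saline without overlap with E3 at 24 hr and were called lower there. They also fell more with E2 at 2 hr (-1.35 and -1.37), as described further on. The differences that follow are those of the brightest probe. *Cdkn1b* fell by 0.59 ± 0.09 with E2 (limma adjusted p = 0.00011), and it fell by 1.07 ± 0.09 with E3 (2.10-fold, limma adjusted p = 1.6e-06) at 2 hr. At 24 hr its difference was still -0.83 ± 0.09 with E2 (limma adjusted p = 9.3e-06), and with E3 the difference was -0.14 (95% confidence interval -0.34 to 0.06). From 2 to 24 hr *Cdkn1b*, which encodes p27, rose by 0.93 ± 0.09 with E3 (limma adjusted p = 3.8e-06).

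*Cdkn1c* gave 3.89, 3.69, and 3.79 in saline, 4.13, 4.27, and 4.36 with E2 at 2 hr, 3.36, 3.24, and 3.20 with E3 at 2 hr, 1.90, 2.45, and 2.35 with E2 at 24 hr, and 3.01, 2.96, and 2.39 with E3 at 24 hr. None of the 4 hormone groups overlapped with saline, and the E2 group at 2 hr alone lay above it. At 24 hr *Cdkn1c* fell by 1.55 ± 0.17 with E2 (2.94-fold, limma adjusted p = 9.8e-06), and with E3 it fell by 1.00 ± 0.17 (limma adjusted p = 0.0011). At 2 hr *Cdkn1c* changed by 0.46 ± 0.17 with E2 (limma adjusted p = 0.031) and by -0.52 ± 0.17 with E3 (limma adjusted p = 0.022). The E2 call at 2 hr was lost without E2 replicate 2 (0.45, limma adjusted p = 0.070) or 3 (0.41, limma adjusted p = 0.093) or saline replicate 2 (0.41, limma adjusted p = 0.093) or 3 (0.46, limma adjusted p = 0.066), and with quantile normalization (0.30, limma adjusted p = 0.14). The E3 call at 2 hr was lost without saline replicate 1 or 3 or E3 replicate 2 or 3 (-0.52 to -0.47, limma adjusted p = 0.052 to 0.073), with slide as a fixed block (-0.52, limma adjusted p = 0.16), and without the 2 arrays high in pancreas markers (-0.51, limma adjusted p = 0.057).

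*E2f1*, the factor that the phosphorylated retinoblastoma protein releases, read -3.36, -2.41, and -3.45 in saline, -4.26, -3.99, and -3.68 with E2 at 2 hr, -3.53, -3.04, and -1.91 with E3 at 2 hr, -0.85, -0.68, and -0.72 with E2 at 24 hr, and -2.40, -2.15, and -2.20 with E3 at 24 hr. Both groups at 24 hr lay above all saline arrays, the E2 group at 2 hr below, and the E3 group at 2 hr overlapped. *E2f1* rose by 2.32 ± 0.36 with E2 at 24 hr (5.01-fold, limma adjusted p = 0.00013) and differed by 0.82 ± 0.36 with E3 (limma adjusted p = 0.096). Its highest level in saline (-2.41, replicate 2) and with E3 at 2 hr (-1.91, replicate 3) were on the arrays with high leukocyte markers. Without the 3 such arrays the *E2f1* difference at 24 hr was 2.65 with E2 (limma adjusted p = 8.9e-06) and 1.13 with E3 (limma adjusted p = 0.0058), and without saline replicate 2 alone the E3 difference was 1.15 (limma adjusted p = 0.032). At 2 hr the *E2f1* difference was -0.91 ± 0.36 with E2 (limma adjusted p = 0.043). That call was lost without saline replicate 2 (-0.57, limma adjusted p = 0.19) or E2 replicate 1 (-0.76, limma adjusted p = 0.13) or 2 (-0.90, limma adjusted p = 0.087), and with quantile normalization, no scaling, or no filter on dim probes (-0.91 to -0.73, limma adjusted p = 0.052 to 0.086), and without all 3 arrays high in leukocyte markers it held (-0.57, limma adjusted p = 0.025). With E3 at 2 hr the *E2f1* difference was 0.25 (95% confidence interval -0.53 to 1.03).

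**Figure D2:**
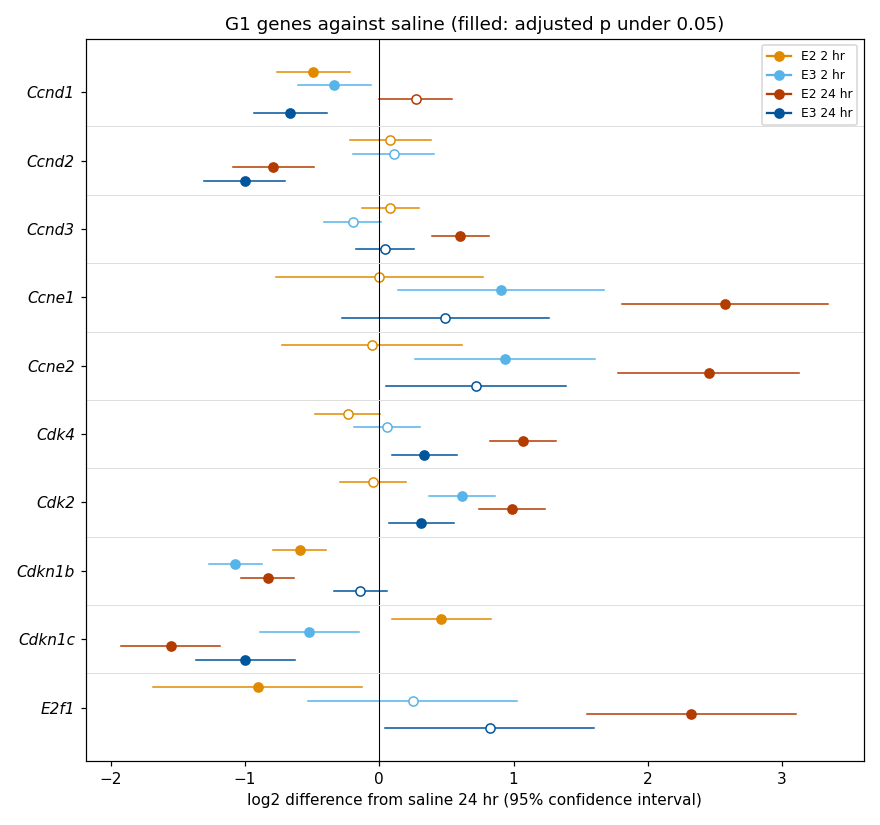
Log2 difference of each gene from saline (x axis) with its 95% confidence interval for E2 and E3 at 2 and 24 hr, filled where the adjusted p is under 0.05. At 24 hr the E2 differences of *Ccne1* (2.57), *Ccne2* (2.45), and *E2f1* (2.32) lie to the right of the E3 ones (0.49, 0.72, and 0.82).

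Counted over the 10 genes, the response was widest with E2 at 24 hr. Of the 10, 6 were called higher and 3 lower than saline there, against 27.3% and 34.1% of all probes tested, and all 9 calls held under each alternative that kept the call rule. With E3 at 24 hr, 2 were higher and 3 lower, against 15.6% and 18.5% of all probes. At 2 hr, E2 gave 1 higher and 3 lower against 29.2% and 32.8%, and E3 gave 3 higher and 3 lower against 18.7% and 31%. The median difference of the 10 genes was 0.80 with E2 and 0.18 with E3 at 24 hr, beside -0.06 and -0.01 over all probes, and -0.05 with E2 and 0.08 with E3 at 2 hr, beside -0.08 and -0.11 over all probes. The number of lower genes was near the share over all probes with E2 at both times and with E3 at 2 hr, and above it with E3 at 24 hr (3 of 10 against 18.5%). The number of higher genes with E2 was below its share at 2 hr and above it at 24 hr, and with E3 it was above its share at 2 hr (3 of 10 against 18.7%) and near it at 24 hr. A stricter rule, a p-value under 0.001 with at least a 2-fold change, called 5 with E2 and 1 with E3 at 24 hr (against 18.1% and 3.81% of all probes). At 2 hr it called 0 of the 10 with E2 (21.2% of all probes), where limma gave 4 at an unadjusted p under 0.05, and 1 with E3 (13.8%).

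Between the times, all 10 genes were called with E2 and 5 with E3 on their brightest probes. With E2, 7 were higher and 3 lower at 24 hr than at 2 hr, against 34.4% and 35.5% of all probes, and the stricter rule called 6 (31.1%). The smallest, *Cdkn1b* (-0.24, limma adjusted p = 0.032), was not called without E2 2 hr replicate 1 (-0.16, limma adjusted p = 0.13), E2 24 hr replicate 2 (-0.20, limma adjusted p = 0.10), or E2 24 hr replicate 3 (-0.24, limma adjusted p = 0.065), nor without the 2 arrays high in pancreas markers (-0.20, limma adjusted p = 0.12). It was not called either with normexp (-0.13, limma adjusted p = 0.30), no scaling (-0.35, limma adjusted p = 0.091), or only the compared groups in the fit (-0.24, limma adjusted p = 0.089), and *Ccnd3* was not with no scaling (0.41, limma adjusted p = 0.077). The values of the brightest probes with E2 ranged from -2.02 for *Cdkn1c* to 3.23 ± 0.36 for *E2f1* (9.38-fold, limma adjusted p = 4.8e-06). On the other *Cdkn1b* probes the E2 difference was positive (0.31 and 0.32, not called). The dim second *Cdk2* probe turned to -2.25. With E3, *Cdkn1b* was the 1 gene higher at 24 hr and 4 were lower, against 33% and 22.3%, and the stricter rule called *Ccnd2* alone (16.1%). *Ccnd2* fell by 1.11 ± 0.14 (limma adjusted p = 2.9e-05). The other E3 calls, *Ccnd1* (-0.33), *Cdk2* (-0.30), and *Cdkn1c* (-0.48), were each lost without E3 2 hr replicate 1 (limma adjusted p = 0.13, 0.090, and 0.089), E3 2 hr replicate 2 (limma adjusted p = 0.13, 0.13, and 0.059), or E3 24 hr replicate 3 (limma adjusted p = 0.16, 0.062, and 0.13), with values of -0.49 to -0.23. *Ccnd1* and *Cdk2* also lost it without E3 24 hr replicate 1 (-0.32 and -0.27, limma adjusted p = 0.091 and 0.11) and *Cdk2* without E3 24 hr replicate 2 (-0.32, limma adjusted p = 0.061). Without single arrays, calls were gained for *Ccnd3* without E3 24 hr replicate 1 (0.31, limma adjusted p = 0.033) and *Cdk4* without E3 24 hr replicate 3 (0.40, limma adjusted p = 0.0083). *E2f1* with E3 did not pass (0.57 ± 0.36, limma adjusted p = 0.20), and without E3 2 hr replicate 3 it did (1.03, limma adjusted p = 0.0094). Without the 3 arrays high in leukocyte markers, *E2f1* (1.01, limma adjusted p = 0.0031) and *Cdk4* (0.37, limma adjusted p = 0.032) were called, and *Ccnd1* (-0.33, limma adjusted p = 0.057) and *Cdkn1c* (-0.31, limma adjusted p = 0.15) were not. Without the 2 arrays high in pancreas markers *Ccnd1* (-0.28, limma adjusted p = 0.15) and *Cdkn1c* (-0.49, limma adjusted p = 0.058) were again not called.

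In this comparison of the E3 arrays at 24 and 2 hr the same-numbered arrays deviated together (correlations of 0.388, 0.115, and 0.551 for replicates 1 to 3), and both arrays numbered 3 were high in leukocyte markers. With the replicate number as a block, fitted over all groups, 3 genes were called in place of 5: *Ccnd1* (-0.33, limma adjusted p = 0.062) and *Cdk2* (-0.30, limma adjusted p = 0.057) were not. The call was also lost with only the compared groups in the fit for *Ccnd1* (limma adjusted p = 0.10) and *Cdkn1c* (limma adjusted p = 0.072), with no filter on dim probes for *Ccnd1* (limma adjusted p = 0.053), and with normexp or no scaling for *Cdk2* (-0.28 and -0.37, limma adjusted p = 0.063 and 0.10). Quantile normalization, the percentile of detected probes, a mean signal above 100, or slide as a random block gave a call for *Cdk4* (0.27 to 0.28, limma adjusted p = 0.039 to 0.049), and the last 2 also for *Ccnd3* (0.24, limma adjusted p = 0.042 and 0.0499). Without the E2 arrays at 2 hr in the fit, 7 genes were called in place of 5, with *Cdk4* and *Ccnd3* (0.24, limma adjusted p = 0.021) gained.

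The compounds were compared directly at the same dose at each time, for 10 genes at 2 times, with p-values adjusted over all probes. At 24 hr, 7 of the 10 genes were lower with E3 than with E2 and 2 were higher, against 15.7% and 20.8% of all probes. The levels given above did not overlap between the compounds at 24 hr for 9 genes, and overlapped for *Cdkn1c*, where 51.2% of the 34756 probes with a level in each group did not overlap. The E cyclins differed most, *Ccne1* by -2.08 ± 0.35 (4.23-fold, limma adjusted p = 0.00081) and *Ccne2* by -1.73 ± 0.31 (3.32-fold, limma adjusted p = 0.0011). *E2f1* was lower with E3, with a difference of -1.50 ± 0.36 (limma adjusted p = 0.0062). Smaller differences separated the compounds for *Ccnd1* (-0.93), *Cdk4* (-0.73), *Cdk2* (-0.68), and *Ccnd3* (-0.56), with limma adjusted p = 0.00017 to 0.001. Of the inhibitors, *Cdkn1b* was higher with E3 by 0.69 ± 0.09 (limma adjusted p = 0.00015) and *Cdkn1c* by 0.56 ± 0.17 (limma adjusted p = 0.023). The *Cdkn1c* call was lost without E2 replicate 1 (0.39, limma adjusted p = 0.092) or E3 replicate 1 (0.44, limma adjusted p = 0.094) or 2 (0.47, limma adjusted p = 0.085), and with no scaling (0.51, limma adjusted p = 0.070) or only the compared groups in the fit (0.56, limma adjusted p = 0.11). *Ccnd2* did not pass, with a difference of -0.21 (95% confidence interval -0.51 to 0.09). The stricter rule called *Ccne1* and *Ccne2* (4.85% of all probes). The E2 and E3 arrays at 24 hr were on different slides, which cannot be told apart from the compound.

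At 2 hr, 3 genes were higher with E3 than with E2 and 3 lower, against 17% and 26.3% of all probes. The higher ones were *E2f1* (1.15 ± 0.36, limma adjusted p = 0.021), *Ccne2* (0.99 ± 0.31, limma adjusted p = 0.021), and *Cdk2* (0.66 ± 0.11, limma adjusted p = 0.00061). The lower ones were *Cdkn1c* (-0.99 ± 0.17, limma adjusted p = 0.00067), *Cdkn1b* (-0.48 ± 0.09, limma adjusted p = 0.0012), and *Ccnd3* (-0.28 ± 0.10, limma adjusted p = 0.035). Of these 6 calls, 1 (*Cdkn1c*) held under each alternative that kept the call rule. On the second probes, described further on, *Cdk2* turned to -2.66 and *Cdkn1b* was not called (-0.21). For *E2f1* and *Ccne2* the call was lost without E3 replicate 3, with high leukocyte markers (0.70 and 0.61, limma adjusted p = 0.074 and 0.082), or E2 replicate 1 (1.01 and 0.84, limma adjusted p = 0.068 and 0.073). *Ccnd3* lost its call without any 1 array of either group other than E2 replicate 2 (-0.30 to -0.18, limma adjusted p = 0.057 to 0.13), and with normexp, quantile normalization, the percentile of detected probes, no scaling, or only the compared groups in the fit (-0.37 to -0.25, limma adjusted p = 0.064 to 0.15). With only the compared groups the calls of *Ccne2* and *E2f1* were lost too (limma adjusted p = 0.072 and 0.082). Without the 3 arrays high in leukocyte markers, *Ccne2* (0.61, limma adjusted p = 0.076) and *Ccnd3* (-0.30, limma adjusted p = 0.069) were not called and *E2f1* was (0.70, limma adjusted p = 0.018), and without the 2 high in pancreas markers *Ccnd3* was not (-0.25, limma adjusted p = 0.13). In the same comparison 2 of the 6 leukocyte markers were called higher with E3 (list median 1.10), and so were 7 of the 7 liver markers (list median 5.73), while 4 of the 6 uterine identity markers were called lower (list median -0.43); their part in the result was not tested. For the 4 others the intervals were -0.12 to 0.43 (*Ccnd1*), -0.28 to 0.33 (*Ccnd2*), 0.14 to 1.67 (*Ccne1*), and 0.05 to 0.54 (*Cdk4*). Of these, *Ccne1* was called without E2 replicate 3 (1.11, limma adjusted p = 0.046) or E3 replicate 1 (1.19, limma adjusted p = 0.023), and *Cdk4* without E2 replicate 2 (0.37, limma adjusted p = 0.028). *Ccne1* was also called with a mean signal above 100 or the replicate block (0.91, limma adjusted p = 0.047 and 0.033), and *Cdk4* with quantile normalization, the percentile of detected probes, or a mean signal above 100 (0.29 to 0.32, limma adjusted p = 0.027 to 0.043). The stricter rule called 0 of the 10 in this comparison (7.37% of all probes), where limma gave 8 at an unadjusted p under 0.05. The C57bl6/Jx129 strain, slides, scanner, and scan day of the E2 arrays at 2 hr cannot be told apart from the compound here.

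**Figure D3:**
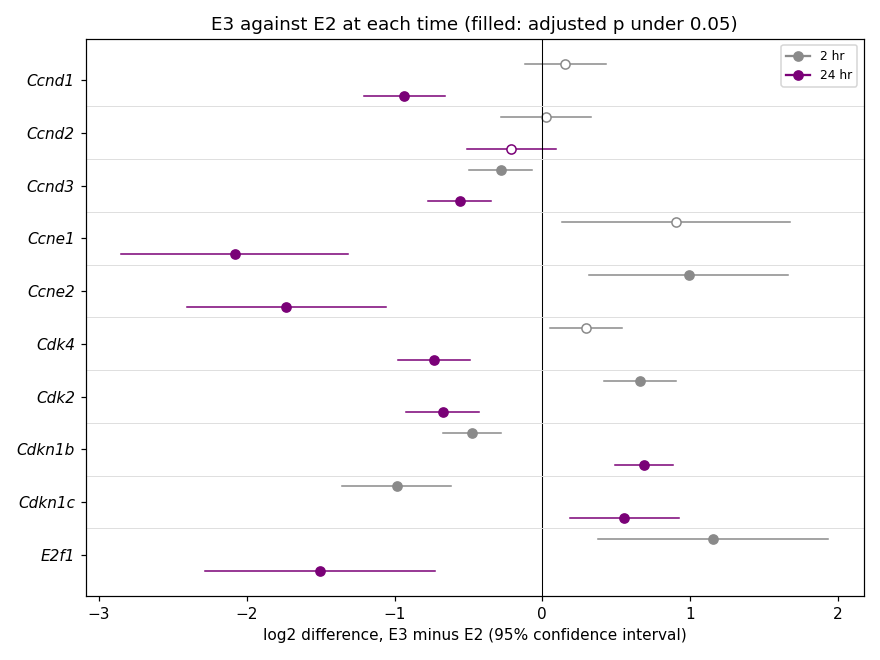
Log2 difference between E3 and E2 (x axis, positive where E3 was higher) with its 95% confidence interval at 2 hr (gray) and 24 hr (purple), filled where the adjusted p is under 0.05. For *Ccne2*, *Cdk2*, and *E2f1* the 2-hr difference is positive and the 24-hr one negative, and for *Cdkn1b* and *Cdkn1c* the reverse holds.

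The change of this E3 minus E2 difference between the times was tested as an interaction. It was called for 8 of the 10 genes by either rule, 6 lower and 2 higher, against 17.6% and 28.5% of all probes, and 15.5% by the stricter rule. The values were -2.99 for *Ccne1*, -2.72 for *Ccne2*, -2.66 for *E2f1*, -1.34 for *Cdk2*, -1.09 for *Ccnd1*, and -1.03 for *Cdk4*, and 1.17 for *Cdkn1b* and 1.54 for *Cdkn1c*, with limma adjusted p = 3.1e-05 to 0.0012. *Ccnd2* (-0.24, 95% confidence interval -0.66 to 0.19) and *Ccnd3* (-0.28, -0.58 to 0.03) did not pass, though *Ccnd3* did without E2 2 hr replicate 1 (-0.38, limma adjusted p = 0.021). The interaction also contains the E2 arrays at 2 hr.

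Ordered by group mean, *Ccne1*, *Ccne2*, *Cdk4*, *Cdk2*, *E2f1*, *Ccnd1*, and *Ccnd3* (7 of the 10 genes) were highest with E2 at 24 hr, against 24.6% of all probes. For 6 of these this group stood clear of the next (against 11.9% of all probes), while for *Cdk2* E2 at 24 hr and E3 at 2 hr overlapped. Below it, the order was E3 at 2 hr, E3 at 24 hr, saline, and E2 at 2 hr for *Ccne2* and *Cdk2*. Neighbors overlapped for *Ccne2* except E3 at 24 hr and saline, while for *Cdk2* the last pair alone overlapped. *Ccne1* also had E3 at 2 hr and E3 at 24 hr next, and its 4 lower groups overlapped from each to the next. *E2f1* and *Cdk4* shared the order E3 at 24 hr, E3 at 2 hr, saline, E2 at 2 hr, with overlap from each to the next except before E2 at 2 hr, which lay clear below saline. *Ccnd2* was highest with E3 at 2 hr, *Cdkn1b* in saline, and *Cdkn1c* with E2 at 2 hr.

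Of the 10 genes, 6 had more than 1 probe, and these did not always give the same picture at 2 hr, at 24 hr, or between the times. The second *Cdk2* probe (chr10:128199926-128199985 in mm7), which has 0 open reading frames and 21.7% G and C, read -8.10, -6.92, and -8.17 in saline and -4.69, -4.98, and -4.41 with E2 at 2 hr, against -7.80 to -6.81 in all other hormone groups. It was dim, well above background on 11 of 15 arrays, and on only 1 of the 3 in saline and 2 of the 3 with E3 at either time, so the size of its differences from these groups is uncertain. The array annotation assigns the brightest and the second *Cdk2* probe to different transcripts. The fitted E2 difference of the second probe at 2 hr was 3.04 (limma adjusted p = 4.6e-06), where the brightest probe, printed above, gave -0.04 (95% confidence interval -0.29 to 0.20). On the second probe the sign was also turned for the *Cdk2* differences between E3 and E2 at 2 hr (-2.66), between the times with E2 (-2.25), and for the interaction (2.09). The E2 arrays at 2 hr, those of C57bl6/Jx129 mice, did not overlap with any others on it. It gave no call for E3 at 2 hr (0.37, limma adjusted p = 0.35), at 24 hr with E3 (0.22, limma adjusted p = 0.64), between the times with E3 (-0.16, limma adjusted p = 0.70), or between E3 and E2 at 24 hr (-0.57, limma adjusted p = 0.18), and with E2 at 24 hr the fitted difference was 0.79 (limma adjusted p = 0.046).

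The second *Ccne1* probe fell by 0.94 with E2 at 2 hr (limma adjusted p = 0.025), where the brightest gave 0.00, and its rise with E2 at 24 hr was 2.36 (limma adjusted p = 5.9e-05). Between E3 and E2 at 2 hr this *Ccne1* probe was higher with E3 by 1.82 (limma adjusted p = 0.00087), also by the stricter rule, where the brightest gave 0.91 and was not called. For *E2f1* the second probe gave -0.26 at 2 hr with E2 (limma adjusted p = 0.38), so the fall was not called on it, and 0.42 between E3 and E2 at 2 hr (limma adjusted p = 0.19), also not called. At 24 hr with E2 it rose by 1.99 (limma adjusted p = 2.6e-05). The other two *Cdkn1b* probes showed larger falls with E2 at 2 hr (-1.35 and -1.37), and they were also called lower with E3 at 24 hr (-0.54 and -0.46, limma adjusted p = 0.012 and 0.030). On these probes the *Cdkn1b* difference between E3 and E2 at 2 hr was not called (-0.21 and -0.18, limma adjusted p = 0.26 and 0.33), and the difference at 24 hr stayed called (0.50 and 0.60, limma adjusted p = 0.016 and 0.0071). The second *Ccnd2* probe was called between E3 and E2 at 2 hr (0.42, limma adjusted p = 0.028) and in the interaction (-0.63, limma adjusted p = 0.018). The second *Ccne2* probe rose by 2.41 with E2 at 24 hr (limma adjusted p = 6.7e-05), and its difference with E3 at 2 hr was 0.87 (limma adjusted p = 0.0504).

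**Figure D4:**
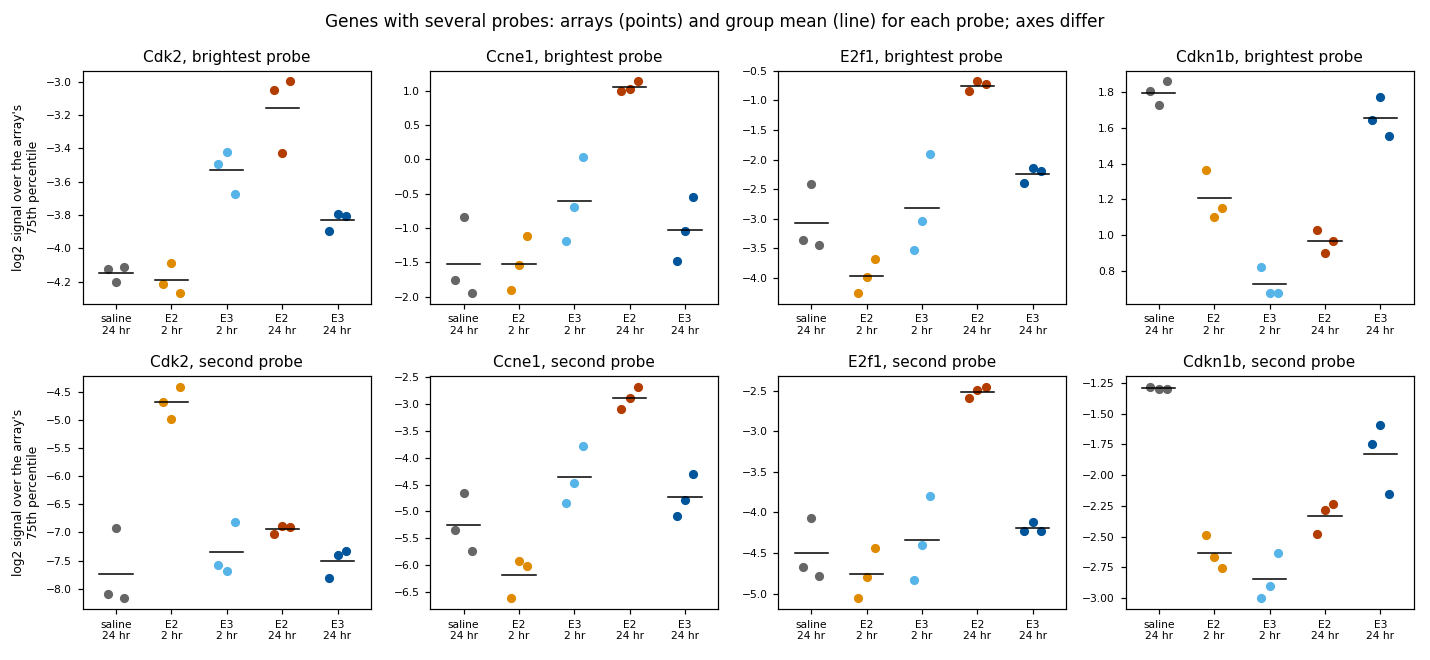
Level on each array (points, y axis in log2 signal over the 75th percentile of the array) and group mean (line) for the brightest and the second probe of *Cdk2*, *Ccne1*, *E2f1*, and *Cdkn1b*. The second *Cdk2* probe is high on the 3 E2 arrays at 2 hr (-4.98 to -4.41), where the brightest is not, and all other pairs keep the rise or fall of E2 at 24 hr.

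The other genes of the pathway were taken as 3 lists, described by their counts and medians. Over all probes the median difference from saline was -0.08 with E2 and -0.11 with E3 at 2 hr, and -0.06 and -0.01 at 24 hr. The shares of all probes called were 29.2% higher and 32.8% lower with E2 and 18.7% and 31% with E3 at 2 hr, and 27.3% and 34.1% with E2 and 15.6% and 18.5% with E3 at 24 hr. All 20 S phase genes driven by E2F (DNA replication and nucleotide synthesis) rose with E2 at 24 hr, with a median difference of 1.64 beside -0.06 over all probes. The values ran from 0.59 for *Slbp* and 0.64 for *Mcm7* to 3.09 for *Cdc6*, which loads the replicative helicase, and 3.36 for *Tk1*, thymidine kinase (limma adjusted p = 5.2e-06). With E3 at 24 hr, 7 of the 20 rose and 0 fell (against 15.6% and 18.5% of all probes), with a median of 0.28, led by *Tk1* (1.98, limma adjusted p = 0.0011) and *Tyms*, thymidylate synthase (0.89, limma adjusted p = 0.00055). All 20 were lower with E3 than with E2 at 24 hr (median -1.25, against 15.7% of all probes), from -0.61 for *Pola1* and *Slbp* to -2.29 for *Cdc6*. At 2 hr, 2 rose and 8 fell with E2 (median -0.25, against 29.2% and 32.8%), and 6 rose and 2 fell with E3 (median 0.16, against 18.7% and 31%). Without the 3 arrays with high leukocyte markers, 20 still rose with E2 and 9 rose with E3 at 24 hr.

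Of the 12 genes of the retinoblastoma and E2F family other than *E2f1*, 6 rose and 3 fell with E2 at 24 hr (median 0.35, against 27.3% and 34.1% of all probes), and 3 rose and 2 fell with E3 (median -0.09, against 15.6% and 18.5%). The repressors *E2f7* and *E2f8* rose with E2 (2.29 and 3.05, limma adjusted p = 6.9e-07 and 9.3e-06) and less with E3 (0.92 and 1.15, limma adjusted p = 0.0018 and 0.019), and the compounds differed (-1.38 and -1.90, limma adjusted p = 9.9e-05 and 0.00095). *Rb1*, the retinoblastoma gene, fell by 0.52 with E2 at 24 hr (limma adjusted p = 0.0026), while its relative *Rbl1* rose by 1.05 (limma adjusted p = 5e-06). At 2 hr 4 of the 12 rose and 2 fell with E2 (median 0.20), where the higher count is near the 29.2% of all probes, and 6 rose and 2 fell with E3 (median 0.46, against 18.7% and 31%). *Tfdp2*, a partner of E2F in binding DNA, fell with E3 at 2 hr (-1.34, limma adjusted p = 1.9e-06) and with E2 at 24 hr (-1.03, limma adjusted p = 1.1e-05).

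Among 16 other regulators of the G1 kinases, 4 rose and 3 fell with E2 at 2 hr, below the 29.2% and 32.8% of all probes, and 5 rose and 6 fell with E3 (against 18.7% and 31%). At 24 hr 9 rose and 1 fell with E2 (against 27.3% and 34.1%), and 5 rose and 3 fell with E3 (against 15.6% and 18.5%). Their median differences were 0.00 with E2 and 0.07 with E3 at 2 hr, and 0.52 and 0.19 at 24 hr. *Cdkn1a*, the inhibitor p21, was the member of this list with the highest difference at 2 hr. Its levels were -1.59, -1.78, and -1.72 in saline, 0.90, 1.06, and 0.83 with E2, and 1.33, 1.34, and 1.29 with E3 at 2 hr. The rise was 2.63 with E2 (limma adjusted p = 8.7e-08) and 3.02 with E3 (limma adjusted p = 6.9e-08), with no overlap. *Cdk6*, the other kinase of the D cyclins, fell by 1.00 at 2 hr with E2 (limma adjusted p = 0.00014) and changed by -1.25 with E3 (limma adjusted p = 3.7e-05). At 24 hr *Cdk6* was lower with E2 (-0.77, limma adjusted p = 0.0011), and with E3 the difference was -0.05 (limma adjusted p = 0.85). *Ccna2*, the cyclin that follows cyclin E in S phase, rose at 24 hr with both E2 (2.70, limma adjusted p = 5.4e-05) and E3 (2.31, limma adjusted p = 0.00081), and the difference between the compounds was -0.39 (limma adjusted p = 0.45). *Skp2*, which marks p27 for degradation, rose with E2 (0.56, limma adjusted p = 0.00045) and fell with E3 (-0.33, limma adjusted p = 0.026) at 24 hr. *Cdc25a*, a phosphatase that activates Cdk2, fell with E3 at 24 hr (-0.53, limma adjusted p = 0.034), and its difference with E2 was 0.16 (limma adjusted p = 0.45).

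**Figure D5:**
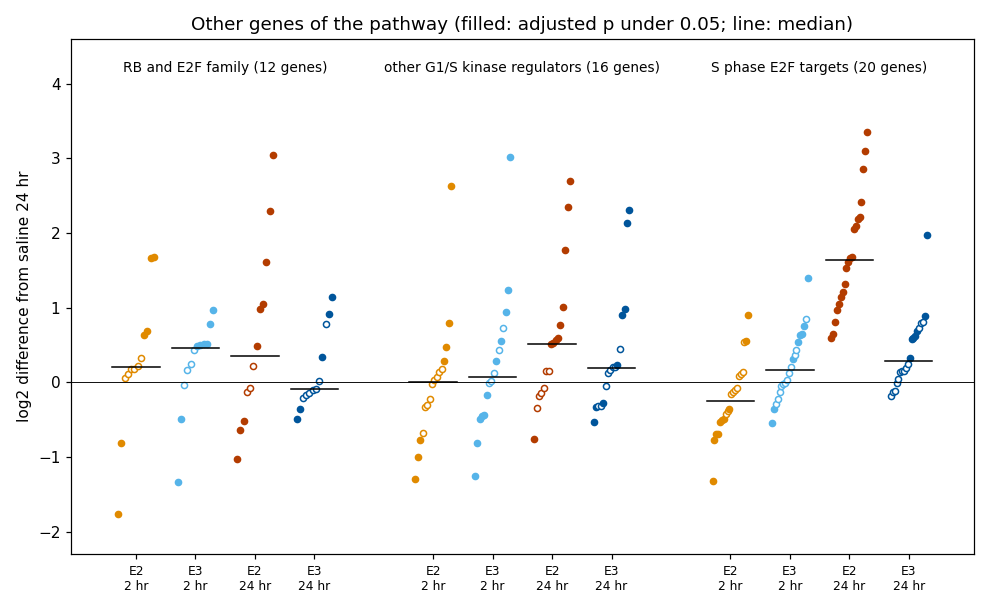
Log2 difference from saline (y axis) of each gene (points, filled where the adjusted p is under 0.05) in 3 lists, with the list median (line), for E2 and E3 at 2 and 24 hr. The S phase genes all lie above 0 with E2 at 24 hr (median 1.64) and are spread around a median of 0.28 with E3.

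Over the 15 arrays, the genes whose levels ran closest to each member were found among 23573 probes, as a description of arrays that share treatment and slides. *E2f1* was closest to *Fanca* (Pearson r = 0.993), *Mcm10* (0.992), and *Gmnn* (0.990), and *Ccne1* to *Cdc6* (0.979), *Spcs3* (0.975), and *Mybl2* (0.972). *Ccne2* was also closest to *Cdc6* (0.976), then to *Uchl4* (0.969) and *Fignl1* (0.967). For *Cdk4* they were *Copz1* (0.987), *Timm13* (0.986), and *Ndufa12* (0.986), and for *Cdk2* they were *Zfp706* (0.976), *Wdr36* (0.969), and *Tmem50b* (0.961). *Cdkn1b* was closest to *Fzd7* (0.984), *Pgm2l1* (0.982), and *Akr1b3* (0.976), and *Cdkn1c* to *Polr3a* (0.985), *Ahcyl1* (0.983), and *Mbnl1* (0.981). The D cyclins were closest to *Lipg* (0.928), *Ankrd49* (0.924), and *Prmt3* (0.905) for *Ccnd1*, to *R3hdm1* (0.970), *Brcc3* (0.960), and *Tmem158* (0.936) for *Ccnd2*, and to *Gsr* (0.951), *Tram1* (0.950), and *D6Wsu176e* (0.945) for *Ccnd3*. Among the members themselves *Ccne1* and *Ccne2* were closest to each other (r = 0.954), and *Cdkn1c* ran most opposite to *E2f1* (r = -0.893).

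Promoter sequences of RefSeq (GRCm38.p6) were matched for 6 of the 10 genes, *Ccnd3* with 2 starts, *Ccne1*, *Cdk4*, *Cdk2*, *Cdkn1b*, and *E2f1*, at the starts that table lists. The 250 bases before each start were searched on both strands for E2F sites (TTTCGCGC, TTTGGCGC, TTTCCCGC, or TTTGCCGC), AP-1 sites (TGAGTCA), Sp1 sites (GGGCGG), and the palindromic estrogen response element. Among 32851 such windows, 1.86% held an E2F site, 4.46% an AP-1 site, 32.7% an Sp1 site, and 0.0639% an estrogen response element. The start listed for *E2f1* may lie downstream of its usual start, so its window may not be its promoter, and the count there says nothing of that promoter. Of the 7 windows searched, that of *Cdk2* alone held an E2F site, TTTCCCGC on the reverse strand, 140 to 133 bases before the start. It is shown because *Cdk2* was called with E3 at 2 hr and with both compounds at 24 hr. It lies at chr10:128705052-128705301, reverse strand, and the capitals mark the E2F letters.
Cdk2: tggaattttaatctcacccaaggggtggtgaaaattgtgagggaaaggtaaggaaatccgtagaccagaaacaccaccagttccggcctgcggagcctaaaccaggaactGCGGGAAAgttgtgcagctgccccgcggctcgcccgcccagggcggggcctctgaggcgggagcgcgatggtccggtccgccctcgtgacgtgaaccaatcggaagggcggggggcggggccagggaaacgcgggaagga

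All 7 windows held at least 1 Sp1 site, with 5 in that of *Cdk2*, 4 each in those of *Ccne1* and *E2f1*, and 1 each in those of *Cdk4* and *Cdkn1b*. None held an AP-1 site or the estrogen response element. These counts describe letters in these windows only.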

How the data were processed

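Uterine RNA of 15 samples, labeled with Cy3, was hybridized by the authors to Agilent mouse arrays of 1 color (design 014868). Per the file headers, Feature Extraction 9.5.3.1 gave a background-subtracted intensity for each of 45018 spots, and probe positions refer to mm7 (NCBI35). The deposited matrix repeats these intensities without scaling (largest relative difference 0).

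Control spots (1639) and outlier flags (1893 values) were dropped and each intensity was set, as log2, against the 75th percentile of its array. That leaves the median of all probes at -0.11 (E3 at 2 hr against saline), 0.12 (E3 between the times), 0.11 (interaction), and within 0.1 of 0 otherwise. A probe was tested if a group had 2 or more arrays with it well above background. R 4.3.3 with limma 3.58.1 (lmFit, eBayes; 10 residual and 2.06 prior degrees of freedom), the data.table package (1.17.8), python 3.11.15, and matplotlib 3.10.9 were used, and the fit was tested on simulated data. The precision is limited by 3 arrays a group. Named genes were the 10 members, per list and comparison the 2 highest and 2 lowest, the partners *Cdk6*, *Ccna2*, *Rb1*, *Rbl1*, *Cdc25a*, and *Skp2*, and the 3 genes closest to each member; for the lists, values are printed for a part of these. Same-numbered arrays deviated together in each pair for E3 at 2 and 24 hr alone (correlations over 0.1). Arrays of different numbers also correlated (up to 0.629) and the labels state no pairing, so the main fit used none. Members and lists were chosen with earlier results of these data known.

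Alternatives were normexp (offset 50; 19 local backgrounds of 1 array over 10 times its median set to that median), quantile normalization, other or no scaling, other filters on dim probes (none, or a mean above 100), the stricter rule, blocks for slide or replicate number, fewer groups in the fit, each array left out, the second-brightest probe, and the deposited matrix. Leaving out the arrays high in leukocyte or pancreas markers and slide as a fixed block were chosen after seeing the data.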

Additional observations from a re-analysis of the deposited data

Results flagged for a closer look

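The difference between E3 and E2 changed between 2 and 24 hr for 8 genes, tested as an interaction in limma with 3 arrays per group. It changed by -1.09 for *Ccnd1*, -2.99 for *Ccne1*, -2.72 for *Ccne2*, -1.34 for *Cdk2*, -1.03 for *Cdk4*, 1.17 for *Cdkn1b*, 1.54 for *Cdkn1c*, and -2.66 for *E2f1* on the log2 scale. For *Cdk2* the second, dim probe gave 2.09. The E2 arrays at 2 hr enter each of these values, and their strain, slides, scanner, and scan day cannot be told apart from the compound. The compounds at 24 hr alone, where the strain was shared, differed for the same 8 genes and for *Ccnd3*. The E2 and E3 arrays at 24 hr were on different slides, so slide cannot be told apart from the compound there. The *Cdkn1c* call at 24 hr held in 15 of 20 alternatives that kept the call rule. The second *Cdk2* probe was not called at 24 hr (-0.57).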

How the results depend on the processing

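Over the recomputed differences of the 10 genes, 1652 kept their direction and side of the threshold, 165 lost the call, 34 gained one, and 39 turned sign. Of the 39, 6 were called before or after the turn, each on the second-brightest probe: *Ccne1* with E2 at 2 hr (-0.94), *Cdk2* with E2 at 2 hr (3.04), between E3 and E2 at 2 hr (-2.66), between the times with E2 (-2.25), and in the interaction (2.09), and *Cdkn1b* between the times with E2 (0.31). The other 33 were called neither before nor after. For *Ccnd2* these were, with E2 at 2 hr, quantile normalization (-0.093), the second-brightest probe (-0.23), and leaving out the arrays high in leukocyte markers (-0.0091), with E3 at 2 hr the latter (-0.0095), and between E3 and E2 at 2 hr normexp (-0.0011), no scaling (-0.066), and the leukocyte arrays left out (-0.00048). *Ccnd3* with E3 at 24 hr turned under quantile normalization (-0.011), no scaling (-0.027), and without the leukocyte arrays (-0.038), and *Ccne1* with E2 at 2 hr when the percentile was taken over the probes detected throughout (-0.053). With E2 at 2 hr, normexp, quantile normalization, and no scaling turned *Ccne2* (0.036, 0.16, and 0.038) and *Cdk2* (0.055, 0.16, and 0.047). Without the leukocyte arrays *Ccne2* also turned with E2 at 2 hr (0.12) and between the times with E3 (0.24). Leaving out 1 array gave, with E2 at 2 hr, -0.027 to 0.24 for *Ccnd2*, -0.022 to 0.17 for *Ccnd3*, -0.22 to 0.34 for *Ccne1*, and -0.29 to 0.12 for *Ccne2*. It gave -0.13 to 0.13 for *Ccnd2* between E3 and E2 at 2 hr, -0.013 to 0.11 for *Ccnd3* with E3 at 24 hr, -0.46 to 0.16 for *Ccne2* between the times with E3, and -0.21 to 0.60 for *E2f1* with E3 at 2 hr. The cause was not tested. The stricter rule, by its construction, gave fewer of the 10 genes: 0 for E2 and 1 for E3 at 2 hr, 5 for E2 and 1 for E3 at 24 hr, 0 and 2 for E3 against E2 at 2 and 24 hr, and 6 for E2 and 1 for E3 between the times. With only the groups compared in the fit, 3 were called for E3 at 2 hr, 3 for E3 against E2 at 2 hr, and 3 for E3 between the times. For E3 at 24 hr, normexp and no scaling each gave 3. Without the 2 arrays high in pancreas markers, 3 were called for E3 at 2 hr and 3 for E3 between the times, and slide as a fixed block gave 3 for E3 at 2 hr; both were chosen after seeing the data. Leaving out 1 array gave 2 to 4 (E2 at 2 hr), 2 to 6 (E3 at 2 hr), 9 (E2 at 24 hr), 3 to 4 (E3 at 24 hr), 3 to 7 and 8 to 9 (E3 against E2 at 2 and 24 hr), 9 to 10 and 2 to 6 (between the times with E2 and E3), and 8 to 9 (interaction).

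With the replicate block, 4 were called for E2 and 5 for E3 at 2 hr, 9 and 4 at 24 hr, 7 and 9 for E3 against E2 at 2 and 24 hr, 10 and 3 between the times, and 8 in the interaction. Deviations of 30 same-numbered pairs correlated at -0.47 to 0.55 (median 0.03, 10 above 0.1). Those of 60 pairs with different numbers correlated at -0.51 to 0.63 (median 0.02, 17 above 0.1). All 3 same-numbered pairs exceeded 0.1 for E3 at 2 and 24 hr alone (0.388, 0.115, and 0.551). The highest correlations were those of saline replicate 2 with E3 replicate 3 at 2 hr (0.629) and at 24 hr (0.627), all high in leukocyte markers. Whether the numbers pair samples is therefore not known, and the main fit did not pair them.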
